A study of Mus musculus with 8 samples.

Results

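The 10 genes described here, Atf3, Sprr1a, Gap43, Sox11, Jun, Ecel1, Gadd45a, Stmn4, Csf1 and Lifr, are genes known to be switched on, or known to act, in neurons whose axons have been cut. They were taken by symbol from a table of 47643 genes, and each has 1 row there. RNA had been sequenced from the spinal cords of 8 C57BL/6 mice, of which 4 were labelled heterozygous and 4 homozygous, in a study of Arf1 in neurons. Arf1 encodes a small GTPase of the Golgi. Tamoxifen at 100 mg/kg, injected into the abdomen, was the stated means of deleting Arf1, and the mice were 2 to 10 months old. The labels name no age for each mouse, no promoter for a recombinase, no allele behind each genotype label and no time from injection to collection. Each library has its own number in its title and is taken as 1 animal, which the labels do not state, so p-values measure only the spread between these libraries.

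When an axon is cut, a signal carried by the kinase DLK and by JNK travels back to the cell body, where Jun and Atf3 proteins enter AP-1 and ATF complexes on DNA. Genes of growth, among them Sprr1a, Gap43 and Sox11, follow in neurons that can regrow, such as sensory and motor neurons with axons in peripheral nerve. Injured sensory and motor neurons also release Csf1, which acts on microglia. In bulk tissue these genes report on all cells together. Fewer cells of a type and less RNA per cell cannot be told apart.

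Promoter sequence is shown because Atf3 and Sprr1a, described next, had the closest profiles over the 8 libraries of all pairs of these genes, although Sprr1a rests on 0 to 8 reads a library. In all, 9 RefSeq windows on GRCm38.p6, from 250 bases before to 50 bases after a transcript start, covered 8 of the 10 genes. Of these windows 4 are shown, 5′ to 3′ on the gene's own strand. Capitals mark matches on either strand to the AP-1 element TGACTCA, to its variant TGACATCA, or to the ATF element TTACGTCA. The first was set with the cyclic AMP element TGACGTCA, and the other 2 were added after the windows had been seen. The windows lie at chr1:191183284-191183583 (Atf3), chr3:92485832-92486131 (Sprr1a), chr4:95052173-95052472 (Jun) and chr12:27342669-27342968 (Sox11), all on the minus strand.
Atf3: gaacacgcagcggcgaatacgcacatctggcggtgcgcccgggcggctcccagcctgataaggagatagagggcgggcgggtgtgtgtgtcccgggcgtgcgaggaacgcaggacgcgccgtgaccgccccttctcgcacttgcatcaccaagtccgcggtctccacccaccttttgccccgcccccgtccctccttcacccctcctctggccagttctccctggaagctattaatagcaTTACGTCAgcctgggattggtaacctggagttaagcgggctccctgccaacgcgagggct
Sprr1a: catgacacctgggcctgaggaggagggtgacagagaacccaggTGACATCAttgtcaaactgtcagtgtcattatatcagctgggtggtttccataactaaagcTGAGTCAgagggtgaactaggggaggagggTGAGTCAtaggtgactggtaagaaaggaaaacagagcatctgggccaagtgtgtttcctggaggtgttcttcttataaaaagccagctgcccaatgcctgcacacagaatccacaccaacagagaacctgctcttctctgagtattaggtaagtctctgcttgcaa
Jun: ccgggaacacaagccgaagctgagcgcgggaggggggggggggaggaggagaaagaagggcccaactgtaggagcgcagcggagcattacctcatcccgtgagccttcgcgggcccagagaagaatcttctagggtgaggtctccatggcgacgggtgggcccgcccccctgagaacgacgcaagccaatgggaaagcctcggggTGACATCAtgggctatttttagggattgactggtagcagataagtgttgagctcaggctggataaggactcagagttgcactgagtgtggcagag
Sox11: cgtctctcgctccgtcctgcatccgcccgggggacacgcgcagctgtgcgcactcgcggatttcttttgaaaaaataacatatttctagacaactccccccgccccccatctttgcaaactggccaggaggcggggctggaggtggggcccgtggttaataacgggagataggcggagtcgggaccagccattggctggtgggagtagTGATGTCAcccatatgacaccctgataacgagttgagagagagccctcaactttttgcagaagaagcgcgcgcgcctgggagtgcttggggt

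Sprr1a held 2 AP-1 elements, beginning 146 and 116 bases before the start and both on the opposite strand, and no other gene of the 8 held one. This element occurs in 5.20% of 32851 promoter windows of this length. The variant TGACATCA lay 207 bases before the Sprr1a start, 45 before that of Jun and 42 before that of Sox11, and it occurs in 3.62% of windows. TTACGTCA lay 10 bases before the start used in the Atf3 window and occurs in 0.499% of windows. That start lies inside the gene, whose 5′ end on the minus strand is at 191218039. The window thus shows an internal transcript start of Atf3 and not the outermost one. TGACGTCA, in 1.79% of windows, was in none of the 8 genes' windows. Of the 3 genes with this variant, Jun and Sox11 did not pass the test between genotypes in any comparison below. Sprr1a had too few reads to be tested there. Whether any of these elements bears on the levels was not tested.

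Arf1 itself was read first as a check of the labels. In CPM, the reads of a gene relative to the total of its library after TMM scaling, it was 334, 296, 322 and 303 in heterozygous replicates 1 to 4. In the libraries labelled homozygous it was 307, 22.5, 22.9 and 39.9 for replicates 1 to 4. The library labelled homozygous replicate 1 thus had the Arf1 level of a heterozygous library, against its label. For this reason every comparison is given over all 8 libraries and over 7, without that library. The choice of the 7 was made with its Arf1 level known. A comparison of 6 libraries, also without heterozygous replicate 1, was added after the data were seen, because the headers of the authors' companion tables name just these 6.

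Over the 8 libraries edgeR called none of the 16511 genes tested in either direction (0% higher and 0% lower at an adjusted p under 0.05), and 1299 and 1470 genes had an unadjusted p under 0.05. Over 7 libraries it called 91 of 16560 genes higher (0.55%) and 111 lower (0.67%) in the homozygous libraries, and over 6 libraries 72 of 16425 higher (0.438%) and 160 lower (0.974%). Of the 10 genes, 9 had enough reads to be tested, all but Sprr1a. Of these 9, none was called over 8 or over 7 libraries, and Atf3 alone was called over 6. At an unadjusted p under 0.05, 1 gene was higher and 0 were lower over 8 libraries, and DESeq2 called none of the 9 over 8 or over 7 libraries. The median log2 fold change of the 9 was 0.074 over 8 libraries, 0.096 over 7 and 0.11 over 6, against 0.0015, 0.0027 and 0.0094 over all genes tested. Fitted values were above 0 for 7 of the 9 over 8 libraries and for 6 over 7 and over 6, beside 8318 of 16511, 8359 of 16560 and 8494 of 16425 of all genes tested.

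**Figure D1:**
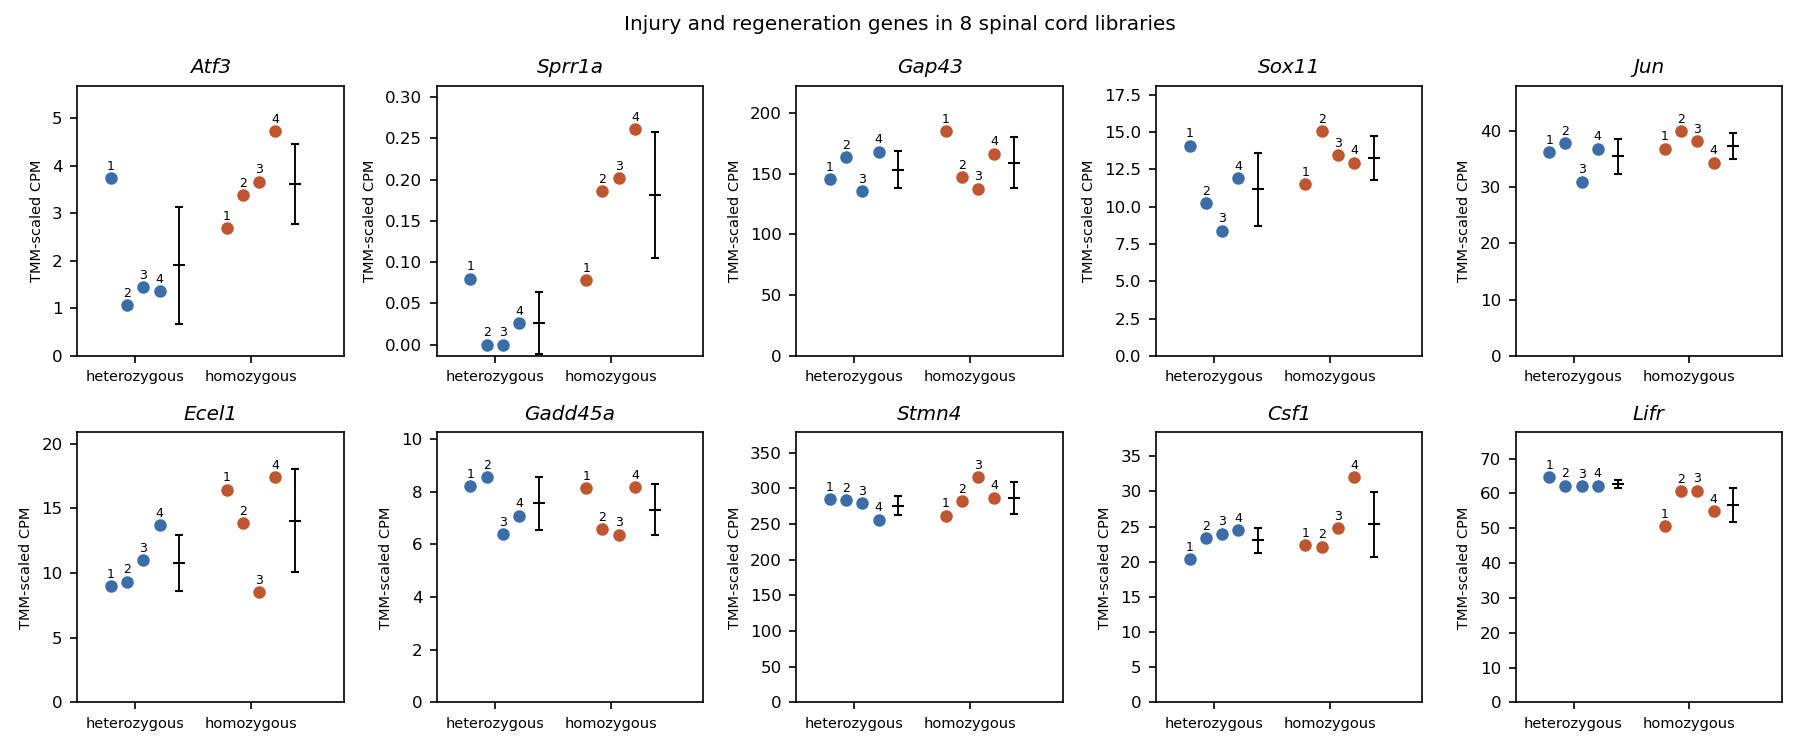
Level of each gene in TMM-scaled CPM (vertical axis, linear) by genotype label; each point is 1 library with its replicate number, and bars show mean ± SD of the 4. Atf3 and Sprr1a show 3 low heterozygous libraries and a higher heterozygous replicate 1, while most other genes overlap between the labels.

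Atf3, a stress-induced bZIP transcription factor and the classic marker of an axotomised neuron, was low in 3 of 4 heterozygous libraries and higher in the rest. It read 3.74, 1.06, 1.45 and 1.36 CPM in heterozygous replicates 1 to 4, from 140, 32, 53 and 52 reads. In the libraries labelled homozygous it read 2.69, 3.39, 3.67 and 4.73 CPM, from 103, 91, 91 and 145 reads. The groups overlapped through heterozygous replicate 1 alone, which lay above replicates 1 to 3 labelled homozygous. All 4 libraries labelled homozygous, including replicate 1 with its heterozygous level of Arf1, lay above heterozygous replicates 2 to 4. Over the 8 libraries the level was 1.90 ± 1.24 CPM in heterozygous and 3.62 ± 0.85 CPM in libraries labelled homozygous (SD, n = 4 each). The fitted log2 fold change was 0.91 (SE 0.37, edgeR adjusted p = 0.261), a 1.89-fold difference with a 95% interval from 1.06 to 3.36.

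Leaving out the library labelled homozygous replicate 1 gave a log2 fold change of 1.04 for Atf3 (SE 0.40, edgeR adjusted p = 0.205). The call turned on heterozygous replicate 1. Without it, and with all 4 libraries labelled homozygous kept, the value was 1.47 (SE 0.23, edgeR adjusted p = 0.0468). Over the 6 libraries it was 1.60 (SE 0.22, edgeR adjusted p = 0.0215), which is 3.03-fold with an interval from 2.16 to 4.24. There the level was 1.29 ± 0.20 CPM against 3.93 ± 0.71 CPM (SD, n = 3 each), and the groups did not overlap. Of the 9 genes, this held for Atf3 and Sox11 with the homozygous group above and for Lifr with it below, and over these 6 libraries for 12.3% and 11.9% of all genes tested. This call in turn was lost without heterozygous replicate 3 (log2 fold change 1.69, edgeR adjusted p = 0.0962), heterozygous replicate 4 (1.63, edgeR adjusted p = 0.0592) or homozygous replicate 3 (1.64, edgeR adjusted p = 0.0703), though the value was no smaller. In the authors' deposited table of 185 genes Atf3 has a log2 fold change of 1.52 and a false discovery rate of 6.26e-06, with the direction not stated. The other 9 genes are not among the 185 of the authors' deposited table. Of the axon injury and AP-1 lists described below, that table holds Hspb1, Cebpb and Cebpd, looked up after the data were seen. Their log2 fold changes there are 1.03, 1.06 and 1.13, with false discovery rates of 0.0267, 0.0144 and 0.000964.

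**Figure D2:**
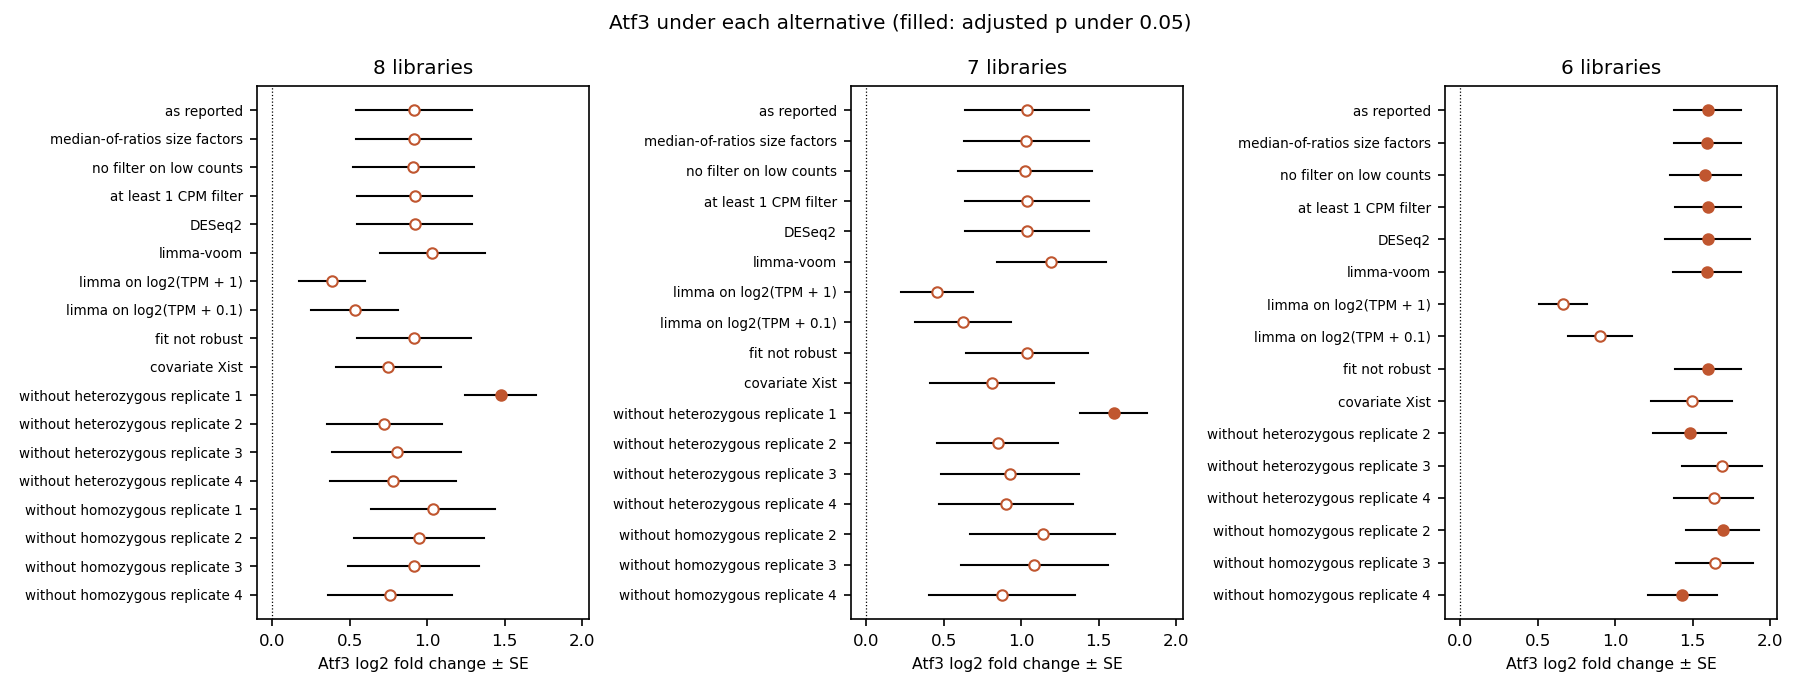
Fitted log2 fold change of Atf3 (horizontal axis, point ± SE, homozygous minus heterozygous) under each alternative, with 8, 7 and 6 libraries from left to right; filled points have an adjusted p under 0.05. With 8 and with 7 libraries the only filled point is the fit without heterozygous replicate 1.

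The transcripts that make up Atf3 also differed between libraries. The effective length that RSEM assigned to the gene, a mean over its transcripts weighted by abundance, was 969 bases in heterozygous replicate 2 and 1281 bases in heterozygous replicate 4. It was between 1622 and 1788 bases in the other 6 libraries. The highest was 1.84 times the lowest, against ratios of 1.003 to 1.27 for the other 9 genes. These 2 libraries had 32 and 52 Atf3 reads, and heterozygous replicate 3, with 53 reads, had a length of 1633 bases. In TPM, which divides the reads by this length before scaling, Atf3 was 3.89, 1.84, 1.47 and 1.94 in heterozygous and 2.57, 3.02, 2.96 and 4.14 in replicates 1 to 4 labelled homozygous. The same 3 heterozygous libraries were lowest, with a smaller gap than in CPM. Over the 6 libraries the limma value was 0.66 on log2(TPM + 1) (SE 0.15, limma adjusted p = 0.0563). On log2(TPM + 0.1) it was 0.90 (SE 0.21, limma adjusted p = 0.0538). The added constant shrinks differences at low TPM, and on these scales the median of all genes was -0.18 and -0.21. These values therefore do not measure the effect of length alone.

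Sprr1a, a small proline-rich protein that is nearly silent in intact nervous tissue and strongly induced in regrowing neurons, followed Atf3 at a far lower level. It had 3, 0, 0 and 1 reads in heterozygous replicates 1 to 4, and 3, 5, 5 and 8 in replicates 1 to 4 labelled homozygous. A count of 0 allows up to 0.0997 CPM in heterozygous replicate 2 and 0.0822 CPM in heterozygous replicate 3, for counting error only. The groups met at 3 reads, in heterozygous replicate 1 and the library labelled homozygous replicate 1, and the other homozygous libraries lay above all heterozygous ones. Summed over libraries and divided by depth, the ratio was 6.19 (95% exact counting interval 2.09 to 24.8), from 21 against 4 reads. An exact two-sided permutation test gave p = 0.0571 on CPM and on log2 CPM, where the smallest p possible was 0.0286. Over 7 libraries the ratio was 7.77 (2.56 to 31.6) and the exact permutation p = 0.0286 on CPM, the smallest it can be, but 0.0571 on log2 CPM. Over 6 libraries the ratio was 22.9 (3.62 to 954), from 18 reads against 1, with an exact permutation p = 0.1, the smallest that 3 against 3 allows. Sprr1a failed the read filter in all 3 comparisons. With no filter it was called over the 6 libraries, as the second gene beside Atf3.

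The other regeneration factors did not pass the test in any of the 3 comparisons. Jun, the AP-1 subunit phosphorylated by JNK, was 36.2, 37.8, 31.0 and 36.8 CPM in heterozygous and 36.8, 40.0, 38.2 and 34.3 CPM in replicates 1 to 4 labelled homozygous. The groups overlapped almost fully, and the fitted log2 fold change over 8 libraries was 0.074 (SE 0.077, edgeR adjusted p = 0.646), with a 95% interval of 0.94-fold to 1.18-fold. Some Jun reads were shared with other loci, as its expected counts are not all whole. Sox11, a transcription factor of developing neurons that returns after injury, was 14.1, 10.2, 8.38 and 11.9 CPM in heterozygous and 11.5, 15.1, 13.5 and 13.0 CPM in replicates 1 to 4 labelled homozygous. Heterozygous replicate 1 was the highest of its group here too, and the groups overlapped through it and heterozygous replicate 4. The log2 fold change of Sox11 was 0.25 (SE 0.15, edgeR adjusted p = 0.426) over 8 libraries and 0.44 (SE 0.14, edgeR adjusted p = 0.139) over 6, so it did not pass. Over the 6 libraries its groups did not overlap, as for Atf3.

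Gadd45a, a stress protein that binds DNA repair and kinase partners, was between 6.38 and 8.54 CPM in heterozygous and between 6.37 and 8.19 CPM in libraries labelled homozygous. These ranges nearly coincide. Its log2 fold change was -0.042 (SE 0.13, edgeR adjusted p = 0.898), with an interval of 0.79-fold to 1.19-fold, and its expected counts too are not all whole.

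Gap43, a phosphoprotein of the growth cone, was among the most abundant of the 10. It was 146, 164, 136 and 168 CPM in heterozygous and 185, 147, 138 and 167 CPM in replicates 1 to 4 labelled homozygous. The highest library was the one labelled homozygous replicate 1. The fitted log2 fold change was 0.054 (SE 0.10, edgeR adjusted p = 0.815) over 8 libraries and -0.027 (SE 0.096, edgeR adjusted p = 0.898) over 7, and the 8-library interval ran from 0.89-fold to 1.21-fold. Stmn4, a stathmin that binds tubulin, was between 256 and 285 CPM in heterozygous and between 262 and 315 CPM in libraries labelled homozygous. Its log2 fold change was 0.055 (SE 0.069, edgeR adjusted p = 0.712), with an interval of 0.93-fold to 1.15-fold. Both genes are expressed by many intact neurons, and neither varied much from library to library: the coefficient of variation of the CPM over 8 libraries was 11.1% for Gap43 and 6.33% for Stmn4, against 48.6% for Atf3.

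Ecel1, a membrane protease-like protein that is induced in injured neurons, was 8.98, 9.34, 11.0 and 13.7 CPM in heterozygous and 16.5, 13.8, 8.54 and 17.4 CPM in replicates 1 to 4 labelled homozygous. The libraries labelled homozygous replicates 1, 2 and 4 lay above all heterozygous ones, and homozygous replicate 3 lay below them all. The log2 fold change was 0.39 (SE 0.22, edgeR adjusted p = 0.391) over 8 libraries and 0.22 (SE 0.26, edgeR adjusted p = 0.679) over 6. The order of libraries differed from that of Atf3, since the library labelled homozygous replicate 1 was among the highest for Ecel1 and the lowest of its group for Atf3.

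Csf1, the growth factor through which injured neurons act on microglia, was 20.4, 23.3, 24.0 and 24.5 CPM in heterozygous and 22.3, 22.1, 24.7 and 32.0 CPM in replicates 1 to 4 labelled homozygous. Homozygous replicate 4 stood highest and the other 3 lay within or just above the heterozygous range. The log2 fold change of Csf1 was 0.14 (SE 0.12, edgeR adjusted p = 0.578), with an interval of 0.92-fold to 1.32-fold. Lifr, a signalling receptor chain for leukaemia inhibitory factor, was 64.6, 62.2, 62.1 and 62.2 CPM in heterozygous and 50.6, 60.6, 60.8 and 55.0 CPM in replicates 1 to 4 labelled homozygous. All 4 libraries labelled homozygous lay below all heterozygous ones, by little in replicates 2 and 3. The library labelled homozygous replicate 1, whose Arf1 goes against its label, was the lowest. Of the 9 genes tested, Lifr was the only one whose groups did not overlap in CPM over 8 libraries. Groups apart in CPM were seen for 4.67% of all genes tested with the homozygous group below, and for 4.61% with it above. In TPM the groups of Lifr (8.85 to 9.53 against 10.97 to 12.21 TPM) did not overlap either, nor did those of Stmn4. Stmn4 was 387 to 435.88 TPM in libraries labelled homozygous against 435.92 to 455 TPM in heterozygous ones. The share of all genes with groups apart in TPM was not counted. On log2(TPM + 1) the median of all genes was -0.15 over 8 libraries, and the edgeR value of Stmn4 was 0.055. The log2 fold change of Lifr was -0.15 (SE 0.067, edgeR adjusted p = 0.301) over 8 libraries and -0.095 (SE 0.061, edgeR adjusted p = 0.419) over 7, so it did not pass. An exact two-sided permutation test of Lifr on log2 CPM gave p = 0.0286 over 8 and over 7 libraries, the smallest it can be. With 4 libraries in each group, groups that do not overlap always give this value.

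**Figure D3:**
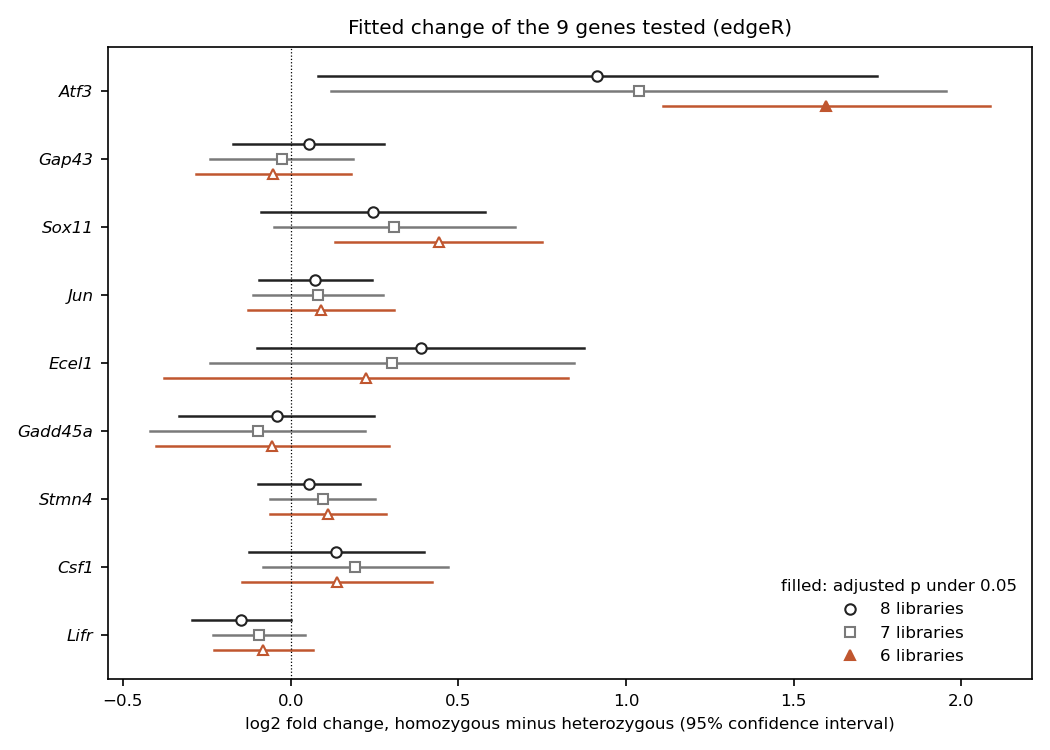
Fitted log2 fold change, homozygous minus heterozygous, with its 95% interval (horizontal axis) for the 9 genes tested, over 8, 7 and 6 libraries; filled marks have an adjusted p under 0.05. The Atf3 value over 6 libraries, at 1.60, is the only filled mark.

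Levels between the genes were compared in TPM, as means over all 8 libraries. Stmn4 was highest at 430 ± 22.3 TPM (SD, n = 8), then Gap43 at 208 ± 34.6 and Jun at 19.6 ± 1.87. These were followed by Gadd45a at 12.9 ± 2.14, Csf1 at 11.1 ± 1.79, Lifr at 10.3 ± 1.30 and Ecel1 at 8.16 ± 2.54 TPM. Atf3 at 2.73 ± 0.96 and Sox11 at 2.41 ± 0.38 TPM came next, and Sprr1a was last at 0.26 ± 0.24 TPM. The ranges of neighbours overlapped from Gadd45a through Csf1 and Lifr to Ecel1, and between Atf3 and Sox11. They did not overlap at the other steps of this order.

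The genes were placed on GRCm38 by their identifiers. Atf3 lies on chromosome 1 from 191170296 to 191218039, and Sprr1a on chromosome 3 from 92483952 to 92485895, both on the minus strand. Csf1 is also on chromosome 3, from 107741048 to 107760469, and Ecel1 also on chromosome 1, from 87147655 to 87156521. None lies on chromosome 11, where Arf1 is.

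Similarity of profile was measured as the Euclidean distance between standardised log2 CPM over the 8 libraries, among 14455 genes with a mean of at least 1 CPM. The 3 genes closest to Atf3 were Cd14 at 0.75, Ctgf at 0.75 and A830073O21Rik at 0.84. Cd14, a co-receptor for bacterial lipopolysaccharide on myeloid cells, was 2.70, 1.70, 1.97 and 1.83 CPM in heterozygous and 2.38, 3.20, 3.34 and 3.56 CPM in replicates 1 to 4 labelled homozygous. Heterozygous replicate 1 was the highest of its group for Cd14, as for Atf3. For Csf1 the closest were Cldn11, a tight junction protein of myelin, at 0.69, the zinc transporter Slc39a1 at 0.74 and the cell cycle inhibitor Cdkn1c at 0.76. Among the 10 genes themselves, Sprr1a included although it is below 1 CPM, the closest pair was Atf3 and Sprr1a at 0.99, then Sprr1a and Sox11 at 1.66 and Atf3 and Sox11 at 1.87.

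Genes that act with or near Jun and Atf3 were read from a list of 15 AP-1 and stress genes. All are bZIP factors but Chac1 and Trib3, which are stress genes. None was called over 8 libraries and 4 had an unadjusted p under 0.05, all higher, beside 7.87% higher of all genes tested. Over 7 libraries 1 of 15 was called higher (0.55% of all genes tested) and over 6 libraries 2 of 15 were (0.438%), with none lower. In these comparisons 6 and 8 of the 15 were higher at an unadjusted p under 0.05, beside 9.51% and 8.57% of all genes tested. The median log2 fold change was 0.18 over 8 libraries, 0.23 over 7 and 0.35 over 6, and 10, 10 and 14 of the 15 were above 0, where all genes tested were near evenly split. Cebpd, a bZIP factor of inflammatory and glial responses, rose over 7 libraries (log2 fold change 1.13, edgeR adjusted p = 0.0334). It read 1.496, 1.296, 1.07 and 1.34 CPM in heterozygous and 1.07, 2.68, 2.66 and 3.20 CPM in replicates 1 to 4 labelled homozygous. Unlike Atf3, Cebpd was low in all 4 heterozygous libraries and in the library labelled homozygous replicate 1. Fos, an AP-1 subunit named after its values were seen, was the other gene called over 6 libraries (log2 fold change 0.54, edgeR adjusted p = 0.0365).

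**Figure D4:**
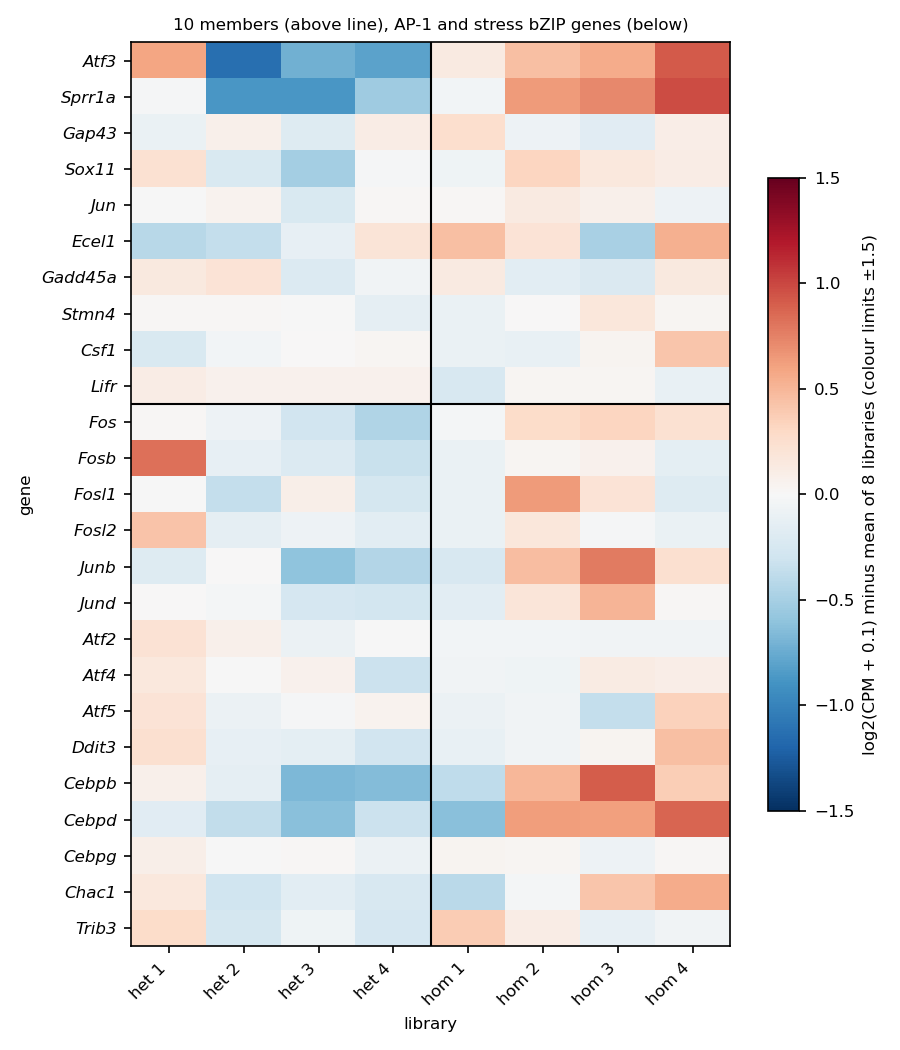
Level of the 10 genes and of the list of 15 AP-1 and stress genes (rows) in each library (columns), as log2(CPM + 0.1) minus the gene's mean over 8 libraries; red is above and blue below that mean. Atf3, Fosb and Fosl2 are high in heterozygous replicate 1, and Cebpd is high in homozygous replicates 2 to 4.

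Genes of the pathway that carries the injury signal did not pass. In the list of 37 further axon injury genes, 36 were tested and none was called over 8, 7 or 6 libraries. Its median log2 fold change was 0.0099 over 8 libraries. At an unadjusted p under 0.05, 1 gene was higher and 4 were lower, beside 7.87% and 8.9% of all genes tested. Hspb1, named after its values were seen, had the highest value of the list over 7 libraries, at 0.87 (edgeR adjusted p = 0.218). Vip, a neuropeptide that injured sensory neurons make, had a log2 fold change of 0.70 (edgeR adjusted p = 0.0879) and Tubb3, a neuronal tubulin, of -0.33 (edgeR adjusted p = 0.0918) over 7 libraries. Of 17 kinases, scaffolds and regulators of DLK and JNK, 15 had a row of their own and were tested, and none was called in any of the 3 comparisons. The lowest adjusted p among them over 7 libraries was that of Dusp1, a phosphatase that acts on JNK and p38 (log2 fold change 0.44, edgeR adjusted p = 0.0872). Mycbp2, a ubiquitin ligase that acts on DLK, was at -0.17 (edgeR adjusted p = 0.294). The gene of DLK itself, Map3k12, was between 89.2 and 102 CPM in heterozygous and between 87.2 and 100.2 CPM in libraries labelled homozygous.

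Of 18 ligands, receptors and signalling genes of the LIF and IL-6 family, 15 were tested and none was called. Il6st, the receptor chain that pairs with Lifr, had a log2 fold change of -0.43 over 7 libraries (edgeR adjusted p = 0.0648), beside -0.095 for Lifr, and the kinase Jak1 was at -0.24 (edgeR adjusted p = 0.138). Il6st read 101, 92.8, 103 and 119 CPM in heterozygous and 90.4, 82.5, 68.7 and 80.3 CPM in replicates 1 to 4 labelled homozygous. Its groups did not overlap, as was so for 4.67% of all genes tested over 8 libraries with the homozygous group below. The ligand Lif was at most 0.83 CPM in any library. In the list of 7 genes around Csf1, 6 were tested and none was called. The Csf1 receptor Csf1r had a log2 fold change of -0.16 (edgeR adjusted p = 0.43) and the microglial adaptor Tyrobp of 0.69 (edgeR adjusted p = 0.0846) over 7 libraries. Csf2ra, a receptor chain for a related growth factor, was at 0.34 (edgeR adjusted p = 0.234).

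Of 18 growth cone and tubulin-binding genes, 1 was called higher over 7 libraries and none lower, and the median was -0.022. The called gene was Dpysl4, a collapsin response mediator that binds tubulin, with a log2 fold change of 0.51 (edgeR adjusted p = 0.0176). It was 31.2, 33.6, 32.8 and 31.5 CPM in heterozygous and 33.8, 49.98, 44.1 and 43.5 CPM in replicates 1 to 4 labelled homozygous. Its homozygous libraries other than replicate 1 lay well above the rest. Of 14 close relatives of the 10 genes that could be tested, Ece1, an endothelin-converting protease of the family of Ecel1, was the 1 called over 7 libraries, with a log2 fold change of -0.42 (edgeR adjusted p = 0.0298). Ecel1 itself was at 0.30 in that comparison, and the difference between the 2 genes was not tested.

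Heterozygous replicate 1, on which the Atf3 call turned, also stood above the other heterozygous libraries for Fosb, Fosl2 and Bdnf. These activity and injury genes were singled out after their values were seen. Fosb was 48.2 CPM there and 21.6 to 24.9 CPM in the other heterozygous libraries, and Fosl2 was 90.2 against 60.0 to 63.4 CPM. Bdnf, a neurotrophin that both injury and activity induce, was 61.3 against 28.0 to 37.2 CPM. The libraries labelled homozygous reached at most 28.6 CPM for Fosb and 32.3 CPM for Bdnf. Over the 6 libraries, without heterozygous replicate 1, Fosb had a log2 fold change of 0.21 (SE 0.090, edgeR adjusted p = 0.264). Dixon's limit, described with the flagged values below, set this library apart as highest of its group for 307 of 16511 genes tested (1.86%). No other library had as many. Among the axon injury, AP-1 and main genes it did so for 5 of 60 (8.33%). These were Atf3, Lifr, Plat, Fosb and Fosl2, without Bdnf. The difference between these shares was not tested.

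Heterozygous replicate 1 was also the lowest of its group for some markers of region and of other cells, and their part in the result was not tested. Hoxd10, a gene of the lumbar cord read after the data were seen, was 0.45, 7.38, 10.2 and 2.33 CPM in heterozygous and 6.09, 0.19, 2.78 and 0.75 CPM in replicates 1 to 4 labelled homozygous. It was picked from several Hox genes, and the others are not described, so Hoxd10 alone does not place a library along the cord. The library with the most Atf3 among the heterozygous ones had the least Hoxd10 of them, and the library labelled homozygous replicate 1 had the least Atf3 and the most Hoxd10 of its group. The summed level of 7 motor neuron markers was 51.5, 88.6, 90.2 and 93.4 CPM in heterozygous and 73.8, 48.4, 47.5 and 70.4 CPM in replicates 1 to 4 labelled homozygous. It was lowest of its group in heterozygous replicate 1. Homozygous replicate 4, with the most Atf3, had a higher sum than homozygous replicates 2 and 3, and more Hoxd10 than replicate 2. Homozygous replicate 3 had both more Hoxd10 and more Atf3 than homozygous replicate 2. In the 6-library comparison 1 of the 7 was called lower. This was Slc5a7, the choline transporter, with a log2 fold change of -0.81 (edgeR adjusted p = 0.041). At an unadjusted p under 0.05, 6 of the 7 were lower there, beside 9.75% of all genes tested. The median of the 7 was -0.72, and 1 was above 0. Over 7 libraries Slc5a7 was at -0.62 (edgeR adjusted p = 0.233) and Mnx1, a motor neuron transcription factor, at -1.42 (edgeR adjusted p = 0.238).

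**Figure D5:**
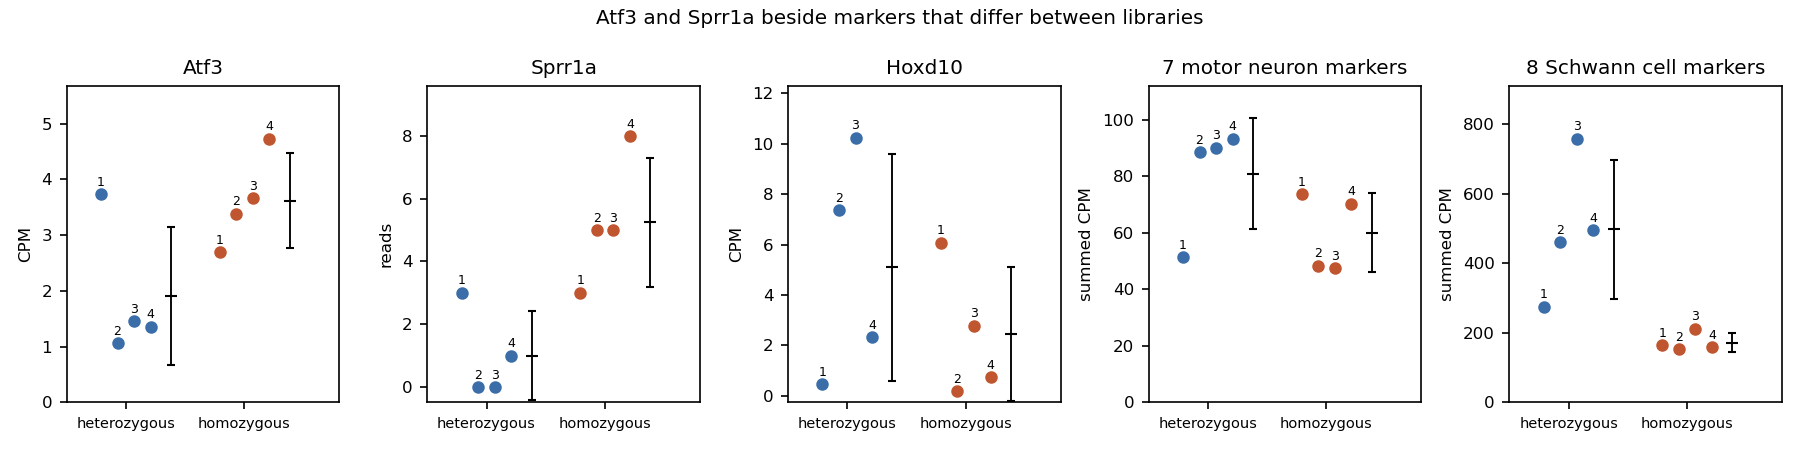
Atf3 (CPM), Sprr1a (reads), Hoxd10 (CPM) and the summed CPM of 7 motor neuron and 8 Schwann cell markers in each library (points with replicate numbers; bars are mean ± SD of 4). Heterozygous replicate 1 is highest of its group for Atf3 and lowest for Hoxd10, the motor neuron sum and the Schwann cell sum.

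Of the marker lists read, that of Schwann cells, which belong to peripheral nerve, had the median farthest from 0, at -1.60 on the log2 scale over 8 libraries. The sum of 8 markers was 275, 460, 757 and 496 CPM in heterozygous and 164, 153, 212 and 159 CPM in replicates 1 to 4 labelled homozygous, with heterozygous replicate 1 again lowest of its group. Among the libraries labelled homozygous this sum did not follow the order of Atf3. Over 7 libraries 1 of the 8 was called lower, Dhh, a hedgehog ligand of Schwann cells (log2 fold change -3.51, edgeR adjusted p = 0.0256). Over 6 libraries 3 of the 8 were called lower, beside 0.974% of all genes tested. Sensory neurons of dorsal root ganglia, which are among the neurons that can regrow, left little RNA. Their channels Scn11a and Trpv1 and receptor Mrgprd reached at most 1.34, 0.52 and 0.16 CPM, each in heterozygous replicate 4. Atf3 was low in that library, at 1.36 CPM. The sum of 10 sensory markers, most of it Tac1, Prph and Calca that cord neurons also express, was 30.4 to 56.2 CPM in heterozygous and 30.1 to 71.2 CPM in libraries labelled homozygous. None of the 7 tested was called over 7 libraries, and the log2 fold change was 0.92 for Tac1 (edgeR adjusted p = 0.282) and -0.81 for Calca (edgeR adjusted p = 0.283).

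Glial markers changed in part. Over 7 libraries 1 of 8 microglial markers rose, C1qa, a complement chain (log2 fold change 0.83, edgeR adjusted p = 0.0178), and 1 fell, Tmem119, a marker of resting microglia (-0.56, edgeR adjusted p = 0.0462). None of 7 astrocyte markers was called, and Gfap had a log2 fold change of 1.17 (edgeR adjusted p = 0.117) and the glutamate transporter Slc1a2 of -0.33 (edgeR adjusted p = 0.169). Oligodendrocyte markers, 6 in all, gave no call either, with Mobp at 0.40 (edgeR adjusted p = 0.261) and Cnp at -0.29 (edgeR adjusted p = 0.339). Summed microglial markers were 304 to 367 CPM in heterozygous and 304 to 393 CPM in libraries labelled homozygous. The sum of 6 fibroblast markers was 63.9 to 134 CPM in heterozygous libraries and 43.4 to 59.5 CPM in those labelled homozygous, so that the groups did not overlap. Their median log2 fold change was -1.31 over 8 libraries, where none was called. There 5 of the 6 were lower at an unadjusted p under 0.05, beside 8.9% of all genes tested. The collagen Col3a1 fell over 7 libraries (-2.33, edgeR adjusted p = 0.0498). No call came over 7 libraries from 6 endothelial markers, where Cdh5 was at -0.81 (edgeR adjusted p = 0.0539) and Pecam1 at -0.46 (edgeR adjusted p = 0.188). The same held for 6 markers of macrophages and blood, with S100a8 at 1.24 (edgeR adjusted p = 0.273) and Hbb-bs at 0.77 (edgeR adjusted p = 0.391). It held for 3 of oligodendrocyte precursors, with Olig2 at -0.29 (edgeR adjusted p = 0.331) and Cspg4 at -0.082 (edgeR adjusted p = 0.717), and for 9 of neurons, with Stmn2 at -0.18 (edgeR adjusted p = 0.295) and Map2 at -0.14 (edgeR adjusted p = 0.448). The labelled tissue was borne out by its markers, since the 9 neuron markers summed to between 7151 and 8569 CPM and the 6 oligodendrocyte markers to between 7677 and 15075 CPM over the 8 libraries.

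The libraries held 26321522 to 37879426 expected counts each. The RNA integrity number was 8 in homozygous replicate 4, the library with the most Atf3 and Sprr1a, and 9 in the others. Ribosomal bases made up 2.44% in homozygous replicate 3 and 0.10% to 0.34% elsewhere. Xist was 386 CPM in heterozygous replicate 4 and 412 CPM in homozygous replicate 4, and it was 44.5 CPM in heterozygous replicate 1 and 33.7 CPM in homozygous replicate 3, next to the Y-linked Ddx3y at 42.7 and 40.5 CPM. With the log2 level of Xist as a covariate the 6-library value of Atf3 was 1.49 (SE 0.26, edgeR adjusted p = 0.0532), which no longer passes.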

How the data were processed

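Total RNA of 8 spinal cords was sequenced. The authors deposited RSEM expected counts and TPM per gene and library, and cutadapt, STAR, Picard and RSEM with build mm10 are named in the submitters' processing notes, without versions or annotation. The authors also deposited an edgeR table with a log2 fold change and a p-value corrected as false discovery rate for 185 genes, whose samples and direction are not stated per the file headers. The sequencing report gives RNA integrity, ribosomal bases in percent and other quality values, per the file headers. Strand of the counting is not given in the sources used here.

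Expected counts were rounded and fitted with edgeR 4.0.16 (TMM, filterByExpr, robust quasi-likelihood test, Benjamini-Hochberg over all genes tested, adjusted p under 0.05), without covariates, over 8, 7 and 6 libraries. The code was tested on simulated counts. Alternatives used DESeq2 1.42.0, limma 3.58.1, other filters and scalings, Xist as a covariate and each library left out. TPM was tested as log2(TPM + 1) for genes with a mean of at least 0.5 TPM. Groups came from the genotype labels, and replicate numbers follow accession order and pair nothing. The 10 genes and all lists were chosen with earlier results of these data known. All 10 genes are named, and from each list up to 6 genes called over 8 or 7 libraries, or else the 2 with the smallest p. Other genes are marked where they were chosen after their values were seen. Map3k12, Csf1r and Lif were named for their role beside a main gene. Counting intervals are 95% exact binomial and cover counting error only.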

Additional observations from a re-analysis of the deposited data

Results flagged for a closer look

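Each value here lies apart from the other 3 libraries of its label by more than Dixon's 95% limit on the gap over the group's range, which chance alone passes in about 1 in 20 groups. Atf3 in heterozygous replicate 1 was 3.74 CPM, where the other 3 heterozygous libraries were 1.06 to 1.45 CPM, and the Atf3 call turns on this library. Lifr was highest in the same library, at 64.6 CPM, where the other 3 lay between 62.1 and 62.2 CPM, so a small gap was large against a narrow group. Mobp, an oligodendrocyte gene, was 3296 CPM in homozygous replicate 4, and S100a8, a neutrophil gene, was 11.9 CPM in the same library. Col3a1, a fibroblast collagen, was lowest in homozygous replicate 2 at 0.856 CPM.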

How the results depend on the processing

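No paired analysis was possible because the labels give no replicate numbers or shared litters. None of the 9 tested genes was called lower under any alternative, and higher calls among them over 8 or 7 libraries (0 in both) came only without heterozygous replicate 1 (range 0 to 1 with 1 library left out). Over 6 libraries the 1 call became 2 with no filter on low counts, 0 on both log2 TPM scales and with the Xist covariate, and 0 to 1 with 1 library left out. For all genes, higher and lower calls over 8 libraries (0 and 0) were 19 and 44 with no filter, 270 and 409 with DESeq2, and 0 to 91 and 0 to 111 with 1 library left out. Over 7 libraries (91 and 111) they were 157 and 287 with no filter, 431 and 650 with DESeq2, 55 and 54 with limma-voom, 33 and 30 with Xist, 69 lower with a fit that was not robust, 1829 and 1904 lower with log2(TPM + 1) and log2(TPM + 0.1), and 3 to 139 and 3 to 263 with 1 library left out. Over 6 libraries (72 and 160) they were 182 and 458 with no filter, 314 and 602 with DESeq2, 28 and 41 with Xist, 25 and 545 with log2(TPM + 1), 33 and 578 with log2(TPM + 0.1), and 6 to 200 and 5 to 526 with 1 library left out. The log2 TPM scales moved the median of all genes by -0.15 and -0.17 over 8, -0.18 and -0.21 over 7, and -0.18 and -0.21 over 6 libraries. On them the sign of small values turned: over 8 libraries Gap43 (-0.12 and -0.12), Jun (-0.095 and -0.10), Stmn4 (-0.10 and -0.10) and Csf1 (-0.016 and -0.019), over 7 Jun (-0.13 and -0.13), Stmn4 (-0.10 and -0.10) and Csf1 (-0.00049 and -0.0028), and over 6 Jun (-0.12 and -0.13), Stmn4 (-0.092 and -0.093) and Csf1 (-0.052 and -0.058). With 1 library left out signs also turned for Gap43 (-0.027 to 0.12 over 8, -0.11 to 0.030 over 7 and -0.14 to 0.0073 over 6), Gadd45a (-0.11 to 0.021 over 8 and -0.19 to 0.065 over 6), Ecel1 (-0.031 to 0.45 over 6) and Csf1 (-0.037 to 0.25 over 6). The cause of these changes was not tested, beyond the shift of all genes. Atf3 rests on 32 to 145 reads a library and Sprr1a on 0 to 8.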
